A study of Homo sapiens with 16 samples.

Results

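Cells of the 16HBE line, bronchial epithelial cells of human origin, were compared after 3 h with D. rotundifolia 3× and after 3 h with Ctrl. D. rotundifolia 3× is a dilution of an ethanolic extract of the round-leaved sundew, a carnivorous plant used in cough remedies, and Ctrl is the diluted ethanol vehicle without the plant. Each group had 4 RNA-seq libraries, which makes 8 of the 16 libraries of the series, and the remaining libraries come from a separate experiment at another time. All cultures were of the same line with no other agent, grown from 1 frozen batch and seeded on uncoated plastic in medium with low serum, and wells of both groups shared plates. The line was immortalized with the large T antigen of SV40, it is a single line, and it was kept submerged, which limits how far it stands for bronchial epithelium.

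The values are TPM, a transcript unit which sets the reads of a gene against its length and against the library total, so that each library sums to nearly the same value. The deposited table listed 19303 gene IDs under 18632 symbols, because many genes are also listed on alternative versions of their locus. TPM were therefore summed over the IDs that share a symbol, and the 12919 symbols that averaged 1 TPM or more across the 8 libraries were tested. Same-numbered libraries were taken as pairs. The replicates are described as biological, but the labels do not tie a number to a passage or a plate, so p-values measure the spread between these cultures. A log2 change is the mean of the 4 pair differences of log2(TPM + 1), D. rotundifolia 3× minus Ctrl, so that 1 stands for a doubling of a well expressed gene and less for a gene near 1 TPM. It is given ± its standard error. It was tested with limma, two-sided, with the replicate number as a block and Benjamini-Hochberg adjustment over all 12919 genes.

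The aryl hydrocarbon receptor (AhR) is a ligand-activated transcription factor that binds plant compounds and pollutants and switches on cytochrome P450 genes in airway epithelium. The same epithelium releases ligands of the epidermal growth factor receptor (EGFR) and cytokines such as interleukin 1 and interleukin 6 within hours of a stimulus, through immediate-early transcription factors. Hypoxia-inducible factor (HIF) drives genes of glucose uptake and glycolysis when oxygen is short, and it shares its partner subunit, ARNT, with AhR. ATF4 is the transcription factor of the amino acid response, which raises amino acid transporters and tRNA synthetases.

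One gene of 12919 passed the threshold of 0.05, CYP1B1, which rose with D. rotundifolia 3×, and no gene fell past it. That is 0.00774% of the genes tested. The next smallest adjusted p from limma was 0.397, so every other gene below is described by its values and its pairs and not as changed. At an unadjusted p under 0.05 from limma, 561 genes (4.34%) were higher and 327 (2.53%) were lower with D. rotundifolia 3×. A gene had the same sign in all 4 pairs in 1236 cases (9.57%) on the higher side and in 769 cases (5.95%) on the lower side. In 132 genes (1.02%) every treated library lay above every Ctrl library, and in 65 (0.503%) every treated library lay below. The median log2 change was 0.015, and the 5th and 95th percentiles were −0.17 and 0.22. The surplus on the higher side depended on the scale: after each library was shifted to one median, 389 genes were higher and 538 lower at an unadjusted p under 0.05, and 821 genes were higher and 1256 lower in all 4 pairs.

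Both libraries of replicate 1 stood apart from the other 6, and the pair did so together. The replicate number took 56.9% of the sum of squares of log2 values, the treatment 12.7% and the remainder 30.4%, and pair 1 held 36.5% of the share of the replicate number. The treatment has fewer degrees of freedom than the replicate number or the remainder, so these raw shares do not compare directly. The mean of the replicate 1 libraries differed from the mean of the other 6 by more than 0.5 on the log2 scale in 971 genes, against 381 to 555 genes for the other numbers. Replicate 1 was the highest in both groups for 21 of 24 immediate-early genes, 9 of 11 EGFR and ERK feedback genes, 14 of 20 cytokines and chemokines and 26 of 33 ATF4 and amino acid response genes, against 15.5% of all genes tested. It was the lowest in both groups for 20 of 20 cholesterol synthesis genes, against 23.5% of all genes. SCD, the stearoyl-CoA desaturase of fatty acid synthesis, had 38.2, 146, 131 and 145 TPM with D. rotundifolia 3× and 37.7, 154, 138 and 145 TPM in Ctrl, in the order of replicates 1 to 4, an order kept in what follows. The cytokine gene CSF2 had 12.8, 2.06, 2.19 and 4.18 TPM with D. rotundifolia 3× and 12.9, 1.43, 1.65 and 3.52 TPM in Ctrl. Levels of these genes thus differed more between replicate 1 and the rest than between the groups. Without both libraries of replicate 1, limma called 0 genes, against 1 with them, and 951 of 12923 genes were under an unadjusted p of 0.05.

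**Figure D1:**
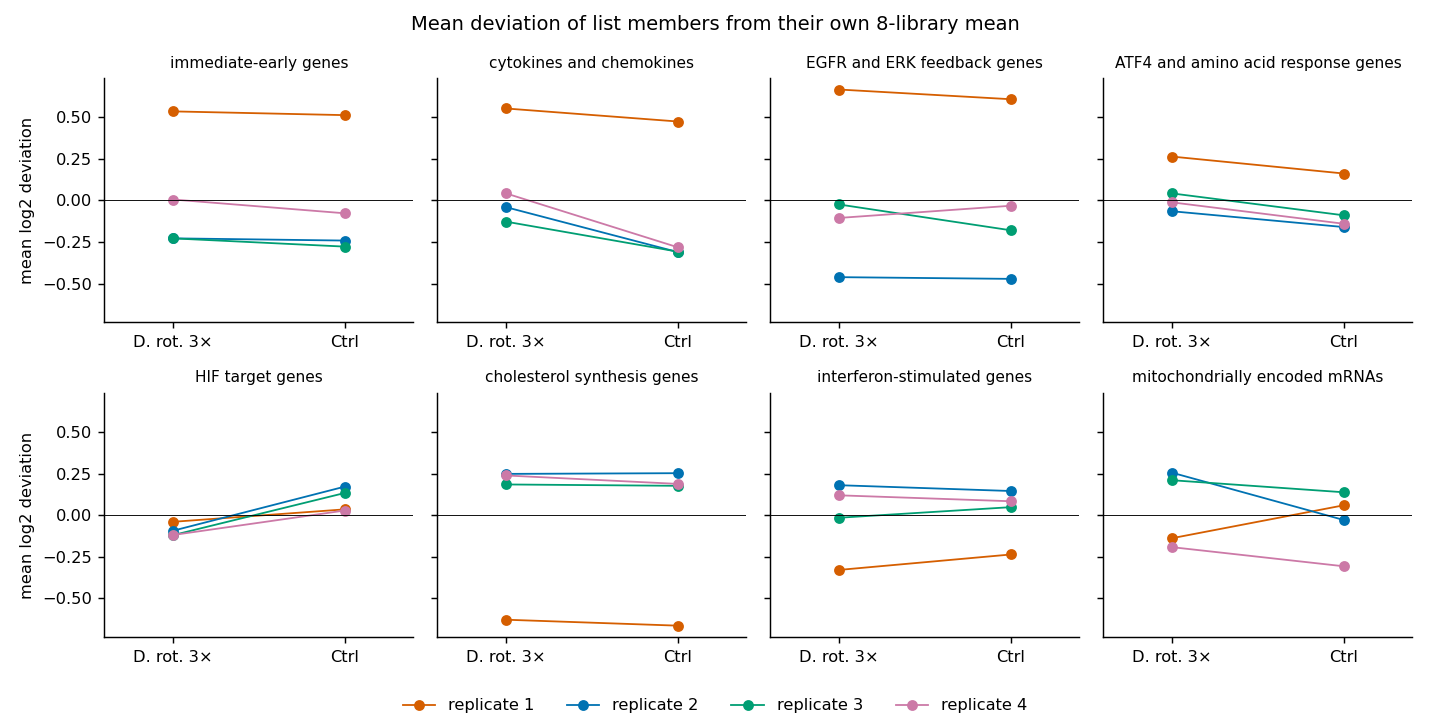
Mean deviation on the log2 scale of the members of 8 gene lists from their own mean over the 8 libraries, for D. rotundifolia 3× and Ctrl, with a line joining each same-numbered pair. Replicate 1 lies above the others in both groups for immediate-early genes and cytokines and below them for cholesterol synthesis genes. In all 4 pairs HIF target genes are lower with D. rotundifolia 3×. Immediate-early genes, cytokines, and ATF4 and amino acid response genes are higher with it in all 4 pairs.

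CYP1B1 encodes a cytochrome P450 that oxidizes plant and pollutant aromatics and is a textbook target of AhR. It had 107, 167, 153 and 166 TPM with D. rotundifolia 3× and 61.5, 95.1, 95.9 and 94.5 TPM in Ctrl. All treated libraries lay above all Ctrl libraries, although replicate 1 was the lowest in both groups. The 4 pair differences were 0.79, 0.80, 0.67 and 0.80, which gives a log2 change of 0.77 ± 0.036, at an adjusted p = 0.0361 by limma. The call was lost without any 1 pair and without the block: adjusted p was 0.25, 0.451, 0.190 and 0.359 without replicate 1, 2, 3 and 4, with log2 changes of 0.76, 0.76, 0.80 and 0.76, and it was 1 without the replicate block. It was also lost with no filter on low TPM (adjusted p = 0.0608) and with no mean trend in limma (adjusted p = 0.199). In these bulk cultures, a change in the number of cells that express a gene and a change in RNA per cell cannot be told apart.

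TIPARP, a mono-ADP-ribosyltransferase that AhR induces and that restrains the receptor in return, had 39.1, 34.7, 37.4 and 34.9 TPM with D. rotundifolia 3× and 23.1, 16.4, 20.6 and 21.9 TPM in Ctrl. The groups did not overlap here either, and the log2 change of 0.81 ± 0.073 was larger than that of CYP1B1, with pair differences of 0.74, 1.04, 0.83 and 0.65 that varied more (limma, adjusted p = 0.397). AHRR, the repressor of AhR, was close to the minimum of 1 TPM, with 2.72, 3.92, 2.28 and 2.85 TPM in treated cells against 1.66, 2.19, 2.21 and 2.19 TPM in Ctrl. Its log2 change was 0.35 ± 0.12, and in pair 3 the difference was 0.03. Of 8 AhR target genes listed, 5 were tested, 1 was called, 3 had every treated library above every Ctrl library against 1.02% of all genes, and the median log2 change was 0.35, against 0.015 over all genes. That median, over so few genes, was 0.17 with a pseudocount of 5 and 0.19 with no filter on low TPM. The other tested members stayed within 0.03 of 0: UGT1A6, which conjugates phenols to glucuronic acid, at −0.02 ± 0.06 and NQO1, a quinone reductase, at 0.01 ± 0.03. CYP1A1, the most cited target of the receptor in other cells, was listed below 1 TPM in most libraries and was not tested. Genes of the receptor complex itself showed no common direction. AHR had 18.2 to 24.7 TPM with D. rotundifolia 3× and 17.8 to 24.8 TPM in Ctrl, and among ARNT, PTGES3 and ARNT2 only ARNT2, a second partner subunit, was lower in all pairs (−0.30 ± 0.085).

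The promoter of TIPARP is shown for its matches to GCGTG, the core letters of the AhR site. The 250 bases before the start of 1 of its 3 RefSeq promoters (chr3:156674340-156674589, plus strand, GRCh38.p14) are printed with the matches in capitals. Both matches read as CACGC because they lie on the opposite strand. This promoter was printed because it held the most matches, and the other promoters of the gene held 0.
TIPARP: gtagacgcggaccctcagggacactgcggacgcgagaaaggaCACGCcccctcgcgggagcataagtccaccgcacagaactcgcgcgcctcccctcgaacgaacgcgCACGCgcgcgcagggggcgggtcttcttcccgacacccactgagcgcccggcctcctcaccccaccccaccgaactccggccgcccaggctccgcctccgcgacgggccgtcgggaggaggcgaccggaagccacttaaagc
All 4 tested AhR target genes with a promoter in the table (TIPARP, AHRR, NQO1 and UGT1A6) held GCGTG on either strand of the promoter window, which also covers 50 bases after the start, and so did 36.5% of all 35116 promoters and at least 1 promoter of 40.6% of all 27305 genes. GCGTG shares its last letters, CGTG, with ACGTG, the form of the HIF core searched below.

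**Figure D2:**
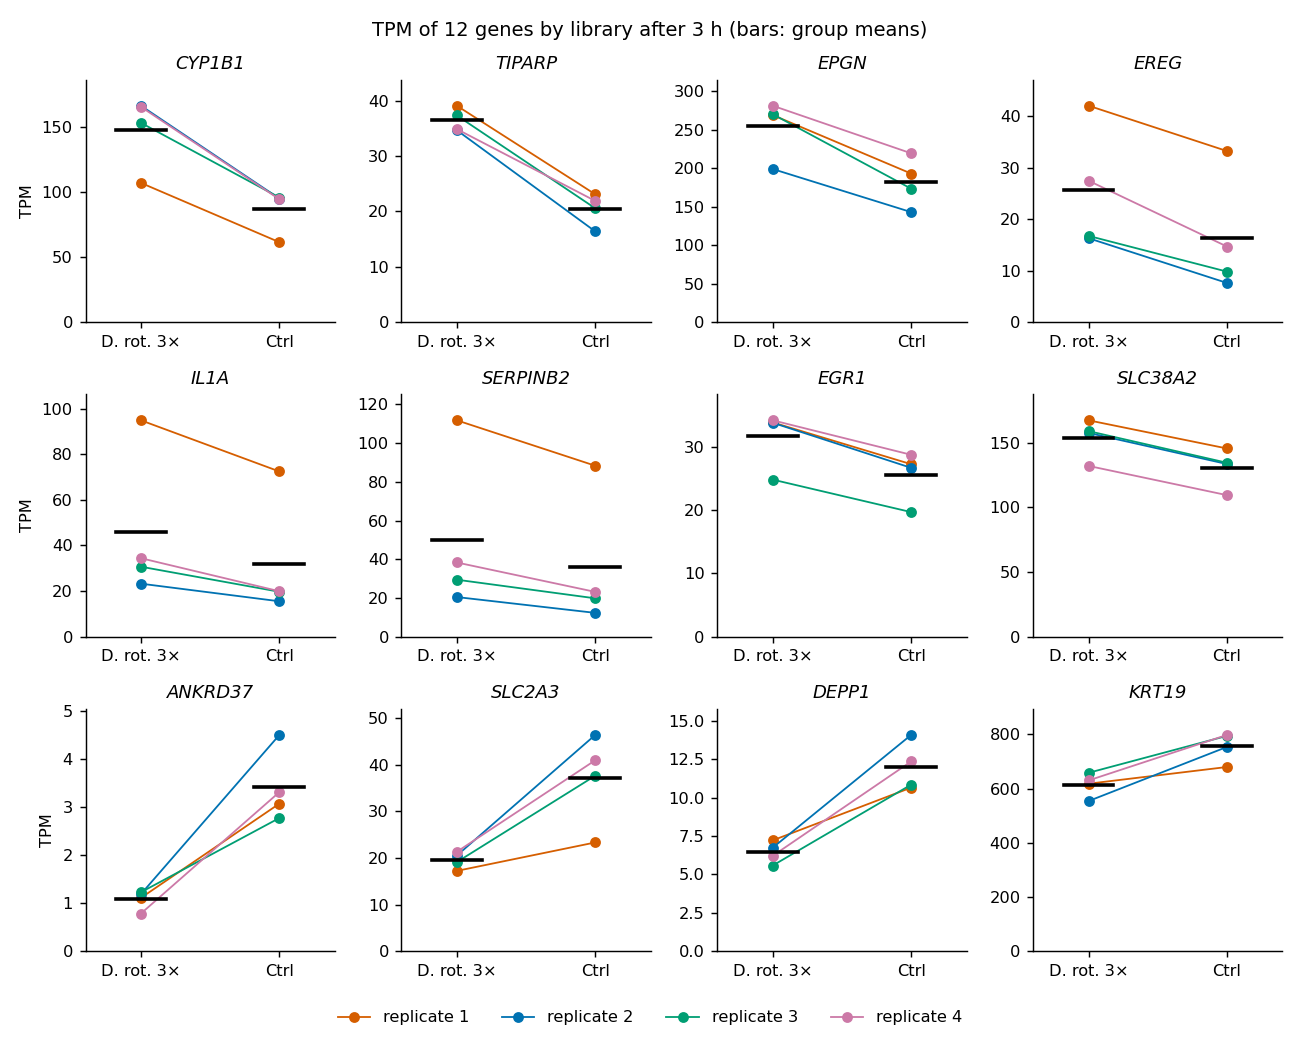
TPM of 12 genes in the 4 libraries with D. rotundifolia 3× (left of each panel) and the 4 Ctrl libraries (right), with a line joining same-numbered libraries and a black bar at each group mean. For CYP1B1 and TIPARP the groups are apart, whereas for IL1A and SERPINB2 the groups overlap and replicate 1 is high in both.

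Of the EGFR ligands 4 were higher in treated cells in every pair, without passing the test. EPGN, epigen, had 269, 199, 270.1 and 281 TPM with D. rotundifolia 3× and 193, 143, 173 and 219 TPM in Ctrl, a log2 change of 0.49 ± 0.05. Each treated library exceeded its own Ctrl, while the groups overlapped and replicate 2 was the lowest of both. EREG, epiregulin, had 42.04, 16.3, 16.7 and 27.5 TPM with D. rotundifolia 3× and 33.2, 7.602, 9.802 and 14.7 TPM in Ctrl, a log2 change of 0.73 ± 0.12. AREG, amphiregulin, had 263, 66.03, 85.96 and 115 TPM in treated cells against 229, 43.98, 57.96 and 80.01 TPM in Ctrl, a log2 change of 0.46 ± 0.072. In both of these genes the replicate 1 library was the highest of its group and pair 1 had the smallest difference, and the log2 changes without replicate 1 were 0.86 for EREG and 0.55 for AREG. HBEGF, a heparin-binding ligand, was lower in abundance and showed 0.36 ± 0.081, again with the same sign in all pairs. TGFA and BTC, transforming growth factor alpha and betacellulin, had log2 changes of 0.08 ± 0.078 and 0.03 ± 0.059. Of 6 tested ligands, 4 were higher in all 4 pairs, against 9.57% of all genes, none was called, and the median log2 change was 0.41.

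Genes that EGFR and ERK signalling switches on to limit itself were divided. PHLDA1 had 26.1, 7.78, 10.9 and 15.1 TPM with D. rotundifolia 3× and 21.9, 5.77, 8.26 and 10.5 TPM in Ctrl (0.37 ± 0.059). SPRY4, SPRY2, DUSP4 and DUSP6, which code for sprouty inhibitors and ERK phosphatases, were higher in all pairs at 0.32, 0.17, 0.13 and 0.17. ERRFI1, which binds EGFR and blocks its kinase, went the other way with 60.8, 29.1, 30.9 and 37.01 TPM in treated cells and 71.7, 49.2, 47.8 and 52.9 TPM in Ctrl, a log2 change of −0.52 ± 0.087. Over the 11 tested genes of the list, 5 were higher and 1 was lower in all pairs, against 9.57% and 5.95% of all genes. The median was 0.081.

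Among immediate-early genes a few were higher in every pair, with narrow errors, and most were close to 0. EGR1, a zinc finger transcription factor, had 33.8, 33.8, 24.8 and 34.2 TPM with D. rotundifolia 3× and 27.2, 26.7, 19.7 and 28.7 TPM in Ctrl, a log2 change of 0.30 ± 0.04. PPP1R15A, which brings phosphatase 1 to the translation factor eIF2 alpha, had 44.2, 30.7, 33.7 and 29.5 TPM in treated cells against 37.2, 24.9, 26.2 and 23.7 TPM in Ctrl (0.30 ± 0.04). IER3, an early stress response gene, had 114, 49.7, 58.6 and 60.5 TPM in treated cells against 99.5, 39.8, 47.1 and 48.2 TPM in Ctrl (0.29 ± 0.039). In IER3 the replicate 1 library was the highest of both groups by a wide margin, and the pair differences were alike (0.19, 0.31, 0.31 and 0.32). FOSL1 and KLF4 followed with 0.24 ± 0.057 and 0.21 ± 0.063. JUN, the AP-1 partner of FOSL1, was lower in all pairs, with 17.5, 8.89, 8.79 and 11.01 TPM in treated cells and 21.1, 12.4, 11.8 and 12.4 TPM in Ctrl (−0.31 ± 0.066), and MYC was lower in all pairs by a smaller amount (−0.16 ± 0.077). Of 24 tested genes 5 were higher and 2 lower in all pairs, against 9.57% and 5.95% of all genes. The list median was 0.039, against 0.015 over all genes. It was 0.017 with each library shifted to one median and 0.025 without replicate 3.

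Cytokines and chemokines were higher in mean in 17 of 20 tested genes, against 7474 of 12919 genes. In all pairs 8 of 20 were higher, against 9.57% of all genes, with no call. IL1A, interleukin 1 alpha, had 94.8, 23.2, 30.7 and 34.4 TPM with D. rotundifolia 3× and 72.4, 15.5, 19.7 and 19.9 TPM in Ctrl, a log2 change of 0.58 ± 0.069. CXCL2, a neutrophil attractant, had 21.7, 14.8, 14.1 and 12.7 TPM in treated cells against 16.3, 11.2, 8.69 and 8.28 TPM in Ctrl, a log2 change of 0.49 ± 0.068. IL6 had 73.3, 51.3, 44.4 and 43.2 TPM in treated cells against 57.04, 40.2, 30.7 and 35.7 TPM in Ctrl, a log2 change of 0.37 ± 0.052. Also higher in all pairs were IL1B (0.43 ± 0.097), CXCL1 (0.30 ± 0.072), CXCL8 (0.28 ± 0.076), LIF (0.17 ± 0.046) and IL11 (0.15 ± 0.055). The list median was 0.16, without replicate 1 it was 0.17, without replicate 4 it was 0.10 and with a pseudocount of 5 it was 0.085. IL24 had the largest log2 change of the list, 0.87, but in only 2 of 4 pairs: it had 159, 47.8, 40.4 and 61.3 TPM with D. rotundifolia 3× and 164, 12.5, 41.1 and 18.04 TPM in Ctrl. Targets and feedback genes of NF-kB, a transcription factor behind many of these cytokines, had a smaller median (0.048 over 14 genes), with BIRC3, an inhibitor of apoptosis, at 0.17 ± 0.04 and NFKBIA, the NF-kB inhibitor, at −0.16 ± 0.16. Of these 14 genes 12 were higher in mean, against 7474 of 12919 genes. In all pairs 3 were higher and 0 lower, against 9.57% and 5.95% of all genes.

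SERPINB2, an inhibitor of plasminogen activators that keratinocytes and macrophages make on stimulation, had 112, 20.5, 29.5 and 38.3 TPM with D. rotundifolia 3× and 88.3, 12.3, 19.8 and 23.1 TPM in Ctrl. Its log2 change was 0.57 ± 0.074 with all replicates and 0.65 without replicate 1. The protease PLAU and its receptor PLAUR were at 0.10 ± 0.041 and 0.07 ± 0.048.

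Many genes of the amino acid response were higher in every pair by small amounts, without passing the test. SLC38A2, a transporter of small neutral amino acids, had 167, 158, 159 and 132 TPM with D. rotundifolia 3× and 146, 134, 135 and 109 TPM in Ctrl, a log2 change of 0.24 ± 0.028 with pair differences of 0.20, 0.24, 0.24 and 0.27. SLC7A5, the light chain of the leucine transporter LAT1, had 259, 214, 218 and 248.6 TPM in treated cells against 231, 182, 189.7 and 203 TPM in Ctrl (0.22 ± 0.032), and its heavy chain SLC3A2 was at 0.17 ± 0.035. ATF4 itself had 278, 230.1, 236 and 199 TPM in treated cells against 263, 201, 201 and 173 TPM in Ctrl (0.18 ± 0.034). A pair of stress genes downstream of it were lower in abundance and further from 0: CHAC1, which degrades glutathione, had 15.4, 10.1, 11.1 and 7.52 TPM in treated cells against 13.3, 7.05, 6.44 and 3.97 TPM in Ctrl (0.54 ± 0.11), and DDIT3, the transcription factor CHOP, was at 0.31 ± 0.066. TARS and LARS, the threonyl- and leucyl-tRNA synthetases, were at 0.19 ± 0.047 and 0.11 ± 0.034. Of 33 tested genes 29 were higher in mean, against 7474 of 12919 genes. In all 4 pairs 17 were higher, against 9.57% of all genes. In limma 15 were under an unadjusted p of 0.05, against 4.34%, and none was called. The median of the list was 0.11. Chaperones of the endoplasmic reticulum, which belong to another branch of the unfolded protein response, had a median of 0.023 over 17 genes, and HSPA5, the main one of them, was at 0.02 ± 0.025.

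The promoter of CHAC1 (chr15:40953221-40953470, plus strand, RefSeq, GRCh38.p14) is printed for its match to TGATGNAA, the composite site of ATF4 and C/EBP factors, which lies on the opposite strand and so reads here as its reverse complement. CHAC1 was picked for printing after its values were seen.
CHAC1: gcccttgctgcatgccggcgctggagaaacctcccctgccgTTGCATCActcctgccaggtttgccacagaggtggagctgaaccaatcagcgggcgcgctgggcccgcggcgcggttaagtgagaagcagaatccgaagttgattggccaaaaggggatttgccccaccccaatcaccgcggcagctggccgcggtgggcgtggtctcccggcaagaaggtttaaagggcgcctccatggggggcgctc
The match is in capitals. TGATGNAA was found on either strand in a promoter of 11 of the 28 listed genes with one in the table (39.3%), CHAC1, SLC3A2, ASNS and several tRNA synthetases among them, against 4.46% of all genes, and in 3.62% of all promoters. SLC38A2, SLC7A5 and ATF4 had no match in their windows.

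HIF target genes were lower in mean in 24 of 28 tested cases, against 5445 of 12919 over all genes. ANKRD37, an ankyrin repeat protein of unknown role that hypoxia induces, had 1.11, 1.19, 1.23 and 0.786 TPM with D. rotundifolia 3× and 3.08, 4.51, 2.78 and 3.32 TPM in Ctrl, a log2 change of −1.08 ± 0.12. SLC2A3, the glucose transporter GLUT3, had 17.2, 20.5, 19.1 and 21.3 TPM in treated cells against 23.3, 46.4, 37.6 and 40.9 TPM in Ctrl, a log2 change of −0.85 ± 0.12, or −0.997 without replicate 1. ADM, the vasodilator peptide adrenomedullin, had 7.26, 6.39, 5.58 and 6.81 TPM in treated cells against 9.56, 8.904, 9.36 and 9.68 TPM in Ctrl, a log2 change of −0.47 ± 0.07. In these 3 genes and in BHLHE40, a transcriptional repressor (35.7, 33.04, 30.2 and 31.9 TPM with D. rotundifolia 3×, 36.9, 38.4, 36.2 and 44.3 TPM in Ctrl), every treated library was below every Ctrl library, against 0.503% of all genes. KDM3A, a histone demethylase, PDK1, which holds back pyruvate dehydrogenase, and HK2, which commits glucose to glycolysis, were lower in all pairs at −0.34 ± 0.082, −0.28 ± 0.083 and −0.39 ± 0.12. Other glycolysis genes of the list, LDHA, PGK1, ENO1, ALDOA and TPI1, were nearer 0, at −0.026, −0.055, −0.0026, −0.017 and −0.026. GPI, also of glycolysis, was higher in all pairs at 0.03. Altogether 11 of 28 were lower in all pairs, against 5.95% of all genes, 1 was higher in all pairs, 9 were under an unadjusted p of 0.05 on the lower side against 2.53%, and none was called. The list median was −0.12, and −0.14 without replicate 1, and it was −0.077 with a pseudocount of 5, −0.074 with no filter and −0.068 at a minimum of 5 TPM. Among the subunits and regulators, HIF1A mRNA was higher in all pairs, with 114, 98.5, 120.2 and 117 TPM in treated cells and 103, 84.2, 107 and 91.8 TPM in Ctrl (0.22 ± 0.044), and EPAS1, which codes for HIF-2 alpha, was at −0.0032 ± 0.067.

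Promoters of ANKRD37 (chr4:185396591-185396840) and BHLHE40 (chr3:4979187-4979436), both on the plus strand, are printed for their matches to ACGTG, the form of the HIF core searched here, again as the 250 bases before the start and with matches on either strand in capitals.
ANKRD37: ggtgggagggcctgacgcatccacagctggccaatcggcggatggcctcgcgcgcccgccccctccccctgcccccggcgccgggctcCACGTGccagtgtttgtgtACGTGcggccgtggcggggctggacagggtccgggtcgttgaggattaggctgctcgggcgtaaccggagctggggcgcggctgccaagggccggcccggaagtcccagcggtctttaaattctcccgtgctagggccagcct
BHLHE40: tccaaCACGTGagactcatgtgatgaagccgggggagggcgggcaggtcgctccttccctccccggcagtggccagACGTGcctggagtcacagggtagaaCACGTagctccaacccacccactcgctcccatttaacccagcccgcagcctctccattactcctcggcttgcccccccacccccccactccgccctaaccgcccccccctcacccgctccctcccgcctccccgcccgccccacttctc
ANKRD37 held 3 matches, 2 of which overlap in CACGTG, a sequence that reads the same on both strands, and BHLHE40 held 4, with 1 such overlap. ACGTG was found in a promoter of 17 of the 24 listed HIF target genes with one in the table (70.8%), against 24.9% of all genes, and in 21.4% of all promoters. ADM and KDM3A had no ACGTG in their windows, and other forms of the HIF core were not counted.

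**Figure D3:**
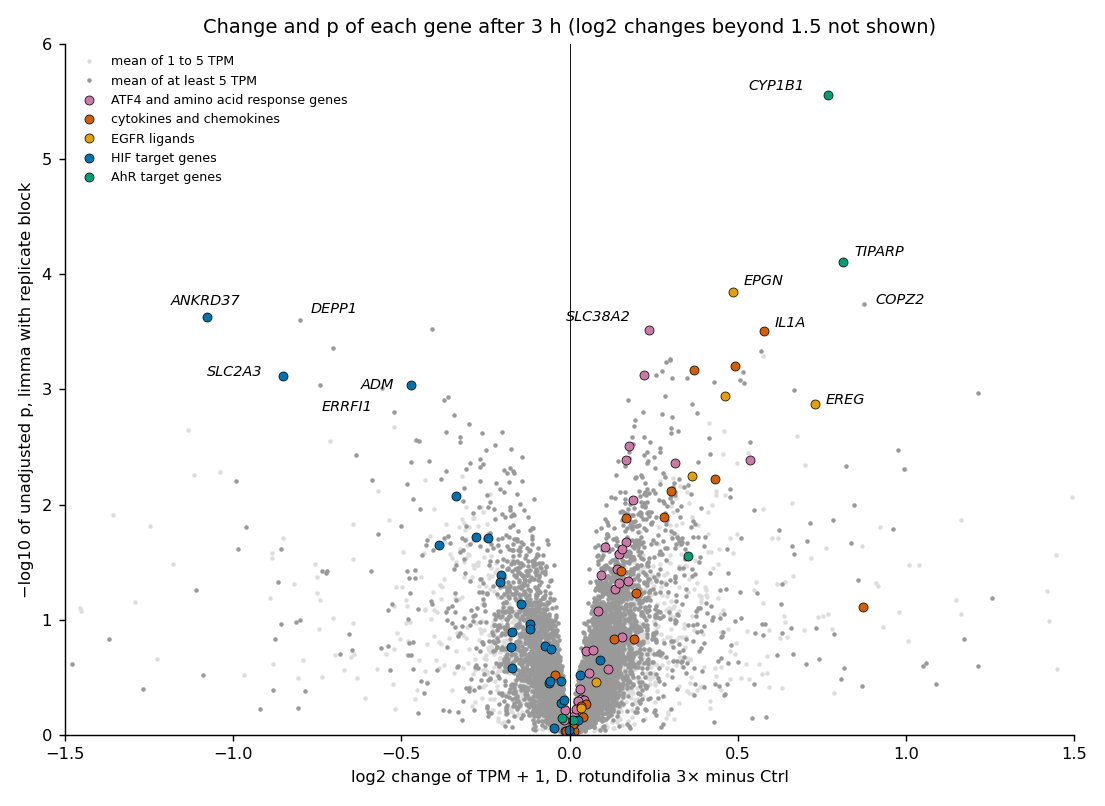
Log2 change of TPM + 1 (x axis) and −log10 of the unadjusted p from limma with the replicate block (y axis) for the tested genes, with members of 5 lists in colour and 12 genes named, and log2 changes beyond 1.5 left out. CYP1B1 stands alone at the top, TIPARP and most EGFR ligands lie to the right, and most HIF target genes lie to the left.

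Genes that FOXO factors induce when insulin and growth factor signals are low had a median of −0.0086 over 11 genes, and in 2 of them every treated library was below every Ctrl library, against 0.503% of all genes. DEPP1, a FOXO target of autophagy, had 7.22, 6.74, 5.58 and 6.21 TPM with D. rotundifolia 3× and 10.6, 14.1, 10.8 and 12.3 TPM in Ctrl, a log2 change of −0.80 ± 0.091. IRS2, the insulin receptor substrate, had 3.69, 2.89, 3.25 and 3.58 TPM in treated cells against 4.2, 4.49, 4.83 and 3.87 TPM in Ctrl (−0.30 ± 0.099). GADD45A, which is also induced by DNA damage, was higher in all pairs (0.25 ± 0.054). DDIT4, an inhibitor of the growth kinase mTORC1 that hypoxia also induces, had 74.4, 43.7, 50.4 and 38.5 TPM with D. rotundifolia 3× and 85.7, 69.8, 64.6 and 57.5 TPM in Ctrl (−0.45 ± 0.084). ARRDC3, an alpha-arrestin, showed the widest spread of the group, with 6.74, 10.2, 5.46 and 7.98 TPM in treated cells against 7.55, 18.7, 22.7 and 16.96 TPM in Ctrl and a log2 change of −0.96 ± 0.27. Pair 1 differed by −0.14, and the value was −1.23 without replicate 1. TXNIP, another alpha-arrestin, which glucose controls, was at −0.02 ± 0.047. The list of mTORC1 brakes and alpha-arrestins that holds these 3 had 8 tested genes and a median of 0.0072. In all pairs 3 were higher and 2 lower, against 9.57% and 5.95% of all genes. Among those higher were SESN2, a leucine sensor that restrains mTORC1, at 0.13 ± 0.054 and TSC2, a subunit of the complex that switches off the mTORC1 activator RHEB, at 0.11 ± 0.037.

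Targets of NRF2, a transcription factor of the response to electrophiles and quinones, were at a median of 0.023 over 19 genes. In all pairs 5 were higher, against 9.57% of all genes. NCOA7, a nuclear receptor coactivator, had 89.4, 83.7, 80.9 and 94.4 TPM with D. rotundifolia 3× and 74.1, 73.3, 63.3 and 77.2 TPM in Ctrl (0.27 ± 0.038), and OSGIN1 had 6.81, 9.07, 7.49 and 8.28 TPM in treated cells against 6.01, 5.73, 5.28 and 6.68 TPM in Ctrl (0.36 ± 0.087). Both were apart between the groups, as were 1.02% of all genes on the higher side. TXNRD1, thioredoxin reductase, was at 0.12 ± 0.03, the efflux pump ABCC2 at 0.46 ± 0.11 and SLC7A11, the cystine transporter, at 0.16 ± 0.091.

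**Figure D4:**
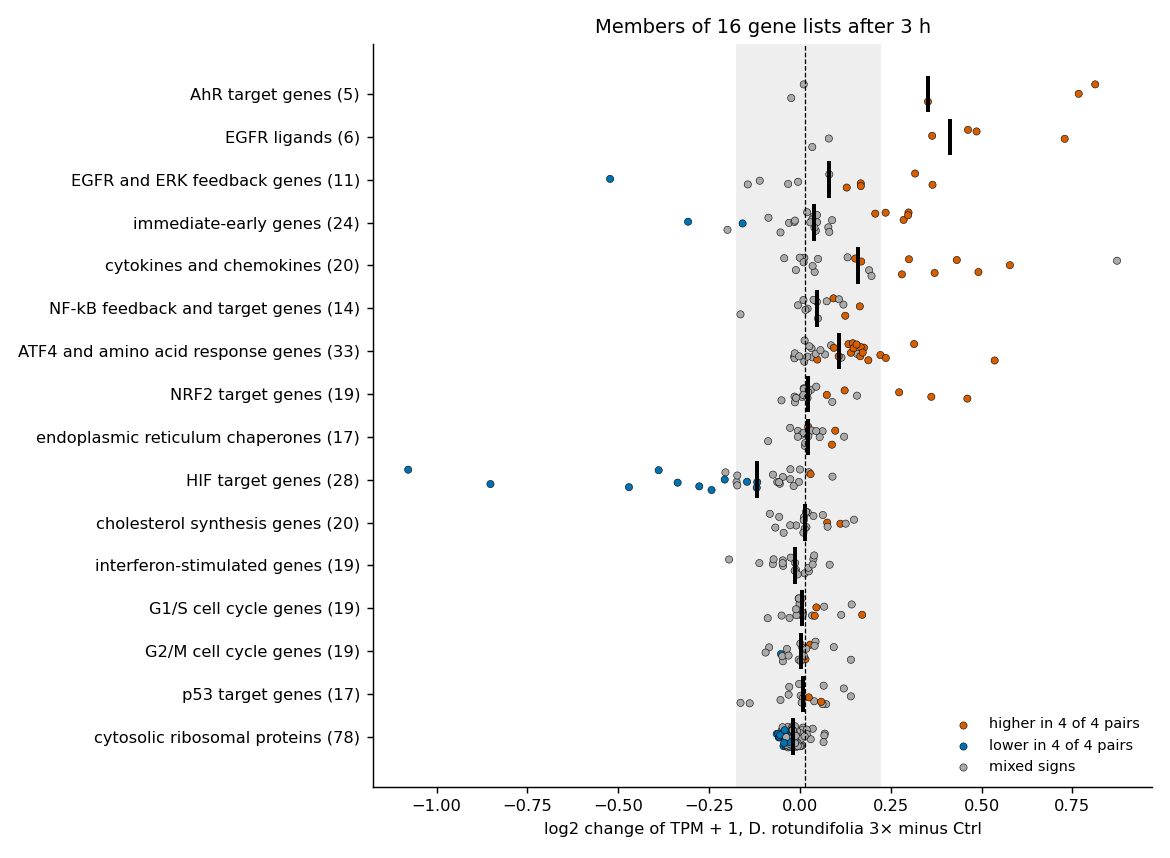
Log2 change of each tested member of 16 gene lists (points, coloured by whether all 4 pairs have one sign), with the list median (black bar), the median of all genes (dashed line) and the range of all genes between their 5th and 95th percentiles (grey band). The number of tested genes is in brackets. Medians of the AhR and EGFR ligand lists lie right of the band, and single HIF target genes reach far to its left.

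Outside these lists, several genes were apart between the groups or even over the pairs on the higher side. COPZ2, a subunit of the COPI vesicle coat, had 35.8, 24.1, 17.1 and 30.1 TPM with D. rotundifolia 3× and 19.7, 15.5, 7.23 and 15.3 TPM in Ctrl, a log2 change of 0.88 ± 0.093, with replicate 3 low in both groups. FBXL5, the iron-sensing subunit of a ubiquitin ligase that degrades iron regulatory protein, had 30.4, 29.9, 31.97 and 37.01 TPM in treated cells against 23.2, 19.2, 24.4 and 22.4 TPM in Ctrl (0.52 ± 0.073) and did not overlap. SH3BGR had 14.1, 22.1, 12.9 and 15.1 TPM in treated cells against 11.2, 11.9, 7.27 and 8.497 TPM in Ctrl (0.67 ± 0.10). ATL1, a GTPase that fuses endoplasmic reticulum tubules, had 9.82, 12.7, 10.5 and 11.02 TPM in treated cells against 5.73, 8.78, 6.999 and 8.58 TPM in Ctrl (0.51 ± 0.074), and EPM2A, the glycogen phosphatase laforin, had 5.76, 5.46, 6.297 and 6.19 TPM in treated cells against 3.82, 3.87, 4.81 and 4.12 TPM in Ctrl (0.43 ± 0.063). Neither overlapped between the groups. CXADR, a tight junction protein and virus receptor, TSC22D1, a leucine zipper protein, and GEN1, a nuclease that resolves DNA crossovers, were higher in all pairs at 0.35 ± 0.05, 0.26 ± 0.037 and 0.30 ± 0.044. AJUBA and CTGF, both targets of YAP, were at 0.22 ± 0.036 and 0.30 ± 0.054, within a YAP list whose median was 0.011 over 16 genes. In that list 2 genes were higher in all pairs and 2 were lower, against 9.57% and 5.95% of all genes. The lower ones were F3, the coagulation starter tissue factor, at −0.17 ± 0.045 and AMOTL2, an angiomotin that binds YAP, at −0.21 ± 0.067. LGR5, a receptor that boosts Wnt signals, was at the low end of the table with 0.732, 2.21, 2.02 and 1.34 TPM with D. rotundifolia 3× and 0.262, 0.68, 0.646 and 0.74 TPM in Ctrl (0.67 ± 0.12).

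On the lower side, NOG, the secreted BMP antagonist noggin, had 6.67, 3.27, 4.48 and 4.55 TPM with D. rotundifolia 3× and 9.13, 5.89, 8.03 and 6.41 TPM in Ctrl, a log2 change of −0.56 ± 0.084. KRT19, a keratin of simple epithelium, had 618, 554, 658 and 630.3 TPM in treated cells against 679.9, 754, 795 and 798 TPM in Ctrl (−0.30 ± 0.052) and did not overlap, whereas KRT8 and KRT18 were at −0.02 ± 0.025 and −0.03 ± 0.025. KCTD11, a cullin adaptor, and SF3B1, a core splicing factor, were lower in all pairs at −0.34 ± 0.058 and −0.20 ± 0.037. IGFBP3, which binds insulin-like growth factors, had 122, 284, 227 and 279 TPM with D. rotundifolia 3× and 127, 368, 283 and 308 TPM in Ctrl (−0.22 ± 0.061), where replicate 1 was far below the rest in both groups. TMEM253, a membrane protein, had the largest log2 change of the genes that were apart, −2.36 ± 0.32, with 0.264, 0.384, 1.904 and 0.329 TPM in treated cells and 13.6, 5.11, 7.85 and 4.91 TPM in Ctrl. Several of the smallest p-values on this side belonged to loci that can share reads with a near-identical gene, such as the processed pseudogenes AL627309.7 (−0.41 ± 0.048) and Z83840.1 (−0.37 ± 0.067) and the read-through gene RPL36A-HNRNPH2 (−0.70 ± 0.09), and their levels are uncertain.

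Beyond 1 on the log2 scale there were 29 genes on the higher and 28 on the lower side, of which 11 and 7 kept one sign in all pairs. CKS1BP2, a processed pseudogene, was listed at 0, 0, 152 and 0 TPM with D. rotundifolia 3× and at 147, 55.5, 146 and 233 TPM in Ctrl, and AC087393.1, another one, at 0 TPM in all treated libraries and at 0, 32.6, 31.99 and 15.4 TPM in Ctrl. Such values jump between 0 and high values within a group. Of the protein-coding genes in this range, GIPR, the receptor of a gut hormone, had 6.997, 7.47, 1.23 and 3.37 TPM with D. rotundifolia 3× and 0.692, 0.974, 1.01 and 0.565 TPM in Ctrl (1.49 ± 0.37).

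Many lists that describe the general state of the cells had a median near that of all genes. None of 19 interferon-stimulated, 19 G1/S, 19 G2/M, 17 p53 target and 13 HLA class I and peptide loading genes was under an unadjusted p of 0.05 in limma, and their medians were −0.013, 0.0054, 0.0020, 0.0089 and 0.012. Cholesterol synthesis genes had a median of 0.015 over 20 genes, with INSIG1, which retains the sterol sensor, the only one under 0.05 (0.11 ± 0.031). Cytosolic heat shock genes had a median of −0.00031 over 14 genes, of which 3 were lower in all pairs, against 5.95% of all genes, and 0 higher. Of 17 tight junction and adhesion genes, 3 were higher in all pairs, against 9.57% of all genes, and the median was −0.0044. CFTR, the chloride channel mutated in cystic fibrosis, had 106 to 125 TPM with D. rotundifolia 3× and 101 to 124 TPM in Ctrl (0.07 ± 0.04). Medians were also small for metallothioneins and zinc export (−0.047 over 6 genes), BMP and TGF-beta genes (−0.038 over 12), insulin and IGF signalling (−0.016 over 8), clock genes (0.036 over 12), keratins (−0.020 over 11) and splicing factors (0.0084 over 20), while the 5 tested Wnt receptor and feedback genes were at 0.12. Lower in all pairs were 3, 3, 2, 1, 3, 1 and 0 genes of these lists in the order given, against 5.95% of all genes. Higher in all pairs were 0, 2, 0, 1, 0, 2 and 2 genes in the same order, against 9.57%. Ribosomal protein genes leaned lower than all genes, by small amounts. Among 78 of them 62 were lower in mean, against 5445 of 12919 genes, with the lowest at −0.064. In all pairs 14 were lower, against 5.95% of all genes.

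Sums over technical genes and cell type markers overlapped between the groups. Mitochondrially encoded mRNAs summed to 31147 to 45288 TPM with D. rotundifolia 3× and to 28905 to 40631 TPM in Ctrl (exact permutation p = 0.5 over the 4 pairs, two-sided). Pair 1 went against the other 3, and none of the 13 mRNAs had one sign in all pairs. Ribosomal protein mRNAs summed to 129433 to 141895 TPM with D. rotundifolia 3× and to 132212 to 140628 TPM in Ctrl (exact permutation p = 0.375, two-sided), and 0.125 is the smallest p that 4 pairs allow. Each library held 12764 to 12989 genes at 1 TPM or more. Markers of simple epithelium, KRT8 and EPCAM among them, summed to 8931 to 11308 TPM in treated and 9292 to 11658 TPM in Ctrl cultures. Of 6 ciliated cell markers 2 were tested, at a sum over all 6 of 5.79 to 8.20 TPM in treated and 6.29 to 7.58 TPM in Ctrl cultures, and FOXJ1, the defining one, had 0.0163 to 0.0653 TPM in treated and 0.0180 to 0.0974 TPM in Ctrl cultures. Leukocyte markers summed to 1.07 to 3.84 TPM in treated and 1.84 to 3.57 TPM in Ctrl cultures, with PTPRC, the pan-leukocyte marker, at 0.0485 to 0.211 TPM in treated and 0.128 to 0.308 TPM in Ctrl cultures, endothelial markers to 4.03 to 5.61 TPM in treated and 4.25 to 5.09 TPM in Ctrl cultures, and fibroblast markers to 10.2 to 17.3 TPM in treated and 13.2 to 16.3 TPM in Ctrl cultures. Basal cell markers summed to 134 to 183 TPM in treated and 136 to 171 TPM in Ctrl cultures, mostly ITGA6 and KRT5, with TP63, the defining one, at a mean of 0.13 TPM. Of 6 secretory cell markers 1 was in the table, LYPD2, at 0.0548 to 0.182 TPM in treated and 0.0550 to 0.235 TPM in Ctrl cultures. The cultures thus expressed the keratins of simple epithelium and also KRT5 and ITGA6, with FOXJ1, TP63 and PTPRC near 0. Other members of these lists averaged more over the 8 libraries. COL1A1 of the fibroblast list was at 12.4 TPM, CDH5 of the endothelial list at 3.88 TPM and LST1 of the leukocyte list at 1.16 TPM. In the basal list DLK2 and KRT14 were at 4.18 and 2.32 TPM, and in the ciliated list DNAH5 and CAPS were at 2.88 and 2.12 TPM.

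Summing over gene IDs altered which gene led the table. Of the 18632 symbols, 416 were listed under several IDs, which took 5.32% of the TPM. Tested one by one, 674 of these IDs reached the mean of 1 TPM, 209 had the opposite sign to the sum of their symbol, and 14 were beyond 1 on the log2 scale, 10 of which had a summed change within 0.25. PPP1R10, a regulatory subunit of phosphatase 1, had 13.8, 13.7, 15.4 and 14.2 TPM with D. rotundifolia 3× on one ID, and all 4 Ctrl libraries listed that ID at 0. Its other ID had 17.2, 30.2, 15.6 and 17.0 TPM with D. rotundifolia 3× and 31.1, 32.4, 36.7 and 40.6 TPM in Ctrl. Summed, PPP1R10 had 30.98, 43.9, 30.96 and 31.2 TPM with D. rotundifolia 3× and 31.1, 32.4, 36.7 and 40.6 TPM in Ctrl, a log2 change of −0.05 ± 0.14. Without summing, limma called 2 genes, that ID of PPP1R10 and CYP1B1. HLA-F, an HLA class I gene listed under 5 IDs, had a log2 change of 1.13 on one of them and of 0.02 ± 0.046 when summed, and no symbol with several IDs was beyond 1 after summing.

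**Figure D5:**
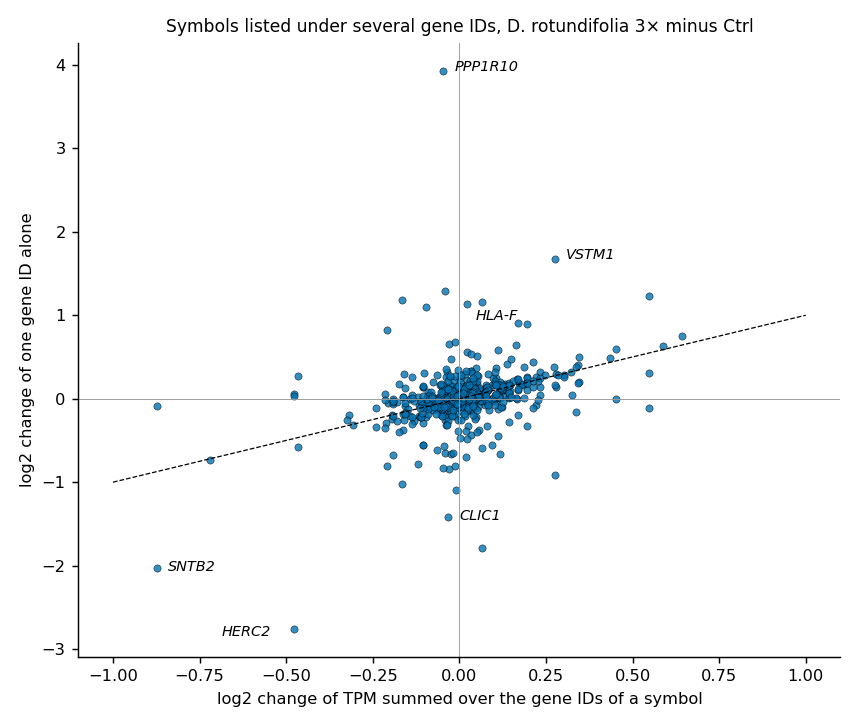
Log2 change of a single gene ID (y axis) against the log2 change of TPM summed over all IDs of its symbol (x axis), for 674 IDs of symbols listed under several IDs. The dashed line marks equal values. The ID of PPP1R10 near 4 sits at a summed change near 0, as do IDs of HLA-F and CLIC1.

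Without replicate 1, the smallest p-values on the higher side belonged to CYP1B1, AREG, SH3BGR, EREG and SERPINB2 and on the lower side to AC087393.1, SLC2A3, TMEM253, DEPP1 and ERRFI1, with an adjusted p of 0.25 for CYP1B1 and 0.25 for SLC2A3 from limma. The log2 change of EREG moved to 0.86, of ERRFI1 to −0.62 and of SLC2A3 to −0.997, each further from 0 than with replicate 1, while those of CYP1B1, EPGN and EGR1 stayed at 0.76, 0.49 and 0.30. List medians without replicate 1 were 0.31 for AhR target genes, 0.46 for EGFR ligands, 0.14 for EGFR and ERK feedback genes and 0.098 for ATF4 and amino acid response genes.

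Of the genes that the study named at this time, 41 on the higher and 25 on the lower side were taken as 2 further lists. These were chosen by the study on the same libraries, so their direction is not independent evidence. Of 39 tested genes named as higher, 36 were higher in all 4 pairs, against 9.57% of all genes, and 9 had groups that did not overlap, against 1.02%, and the exceptions were HLA-F, PPP1R10 and LENG1 (−0.01 ± 0.067), each at or near 0 after summing. Of 24 tested genes named as lower, 21 were lower in all pairs, against 5.95% of all genes, and 9 had groups apart, against 0.503%, and the exceptions were RPP21 (−0.09 ± 0.061), CTDP1 (−0.08 ± 0.072) and TAP2 (0.0008 ± 0.03).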

How the data were processed

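Per the labels and the methods of the study, RNA of 16HBE cultures was made into stranded mRNA libraries and read single-end. The authors quantified the reads with Salmon 0.13.1, with a correction for GC content, against GENCODE on GRCh38.p13, summed transcripts to genes, discarded genes with few reads and deposited TPM for each library. Sequencing depth per library is not given in these values, so no counting interval was computed and no count model was fitted. The deposited table also holds the authors' own comparison, with mean levels, fold changes and p-values from DESeq2 1.22.2, and none of these columns were used. The table of the other experiment was not used. For 5 genes whose symbols had been turned into dates (AGO1 to AGO4 and GEN1), the symbol was restored from the gene ID.

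From the TPM, values were summed by symbol, symbols averaging 1 TPM or more were kept, and log2(TPM + 1) was fitted with limma 3.58.1 in R 4.3.3, with a mean trend and the replicate number as a block. The fit was tested on simulated data. Other values were computed with Python 3.11.15, pandas 2.3.3, numpy 2.4.6 and scipy 1.17.1. The pairing rests on the numbers in the sample titles and on the values: deviations from the group means correlated at 0.469, 0.255, 0.219 and 0.187 between same-numbered libraries, and at 0.056 at most between other libraries. The study names no term for the replicate number, and the fit without the block was an alternative. Other alternatives were pseudocounts of 0.1 and 5, no filter or a minimum of 5 TPM, gene IDs not summed, libraries centred on one median, mitochondrial genes left out, no trend, and each replicate left out in turn.

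The genes named were every called gene, the genes of at least 5 TPM with one sign in all pairs and the smallest p, up to 4 members of each list with the smallest p, genes the study named at this time, genes affected by summing IDs, and the leading genes without replicate 1. Not every gene that this rule takes is reported here. Outside this rule, ALDOA, ATL1, BHLHE40, BTC, CHAC1, CKS1BP2, CSF2, CXCL1, CXCL8, DDIT3, DUSP4, ENO1, EPAS1, EPM2A, FOSL1, GPI, HK2, HSPA5, IL11, IL24, KLF4, KRT8, LARS, LDHA, LIF, MYC, NFKBIA, NQO1, PDK1, PGK1, SCD, SLC7A11, SPRY2, TARS, TGFA, TPI1 and TXNIP were chosen after their values were seen. The members and lists were chosen with earlier results of these data known. Promoters are from RefSeq (GRCh38.p14) and matched by symbol.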

Additional observations from a re-analysis of the deposited data

Results flagged for a closer look

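In each group of 4 libraries, the TPM of 108 genes described above were examined for 1 library far from the other 3, by Dixon's test. These leave out genes given only as cell type markers and the HIF target genes LDHA, PGK1, ENO1, ALDOA, TPI1 and GPI. Of 216 groups examined, 27 (12.5%) were past the critical value of this test, and 22 of the 27 were replicate 1. Chance gives about 1 in 20 for independent groups. Some of the genes were chosen after their values were seen, and list members varied together over the replicates, so that rate does not measure an excess here.

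Replicate 1 was the far library in both groups for 5 genes. IL1A had 94.8 TPM in replicate 1 of D. rotundifolia 3×, against 23.2 to 34.4 TPM in the others, and 72.4 TPM in replicate 1 of Ctrl, against 15.5 to 19.9 TPM. IER3 had 114 and 99.5 TPM in replicate 1 of D. rotundifolia 3× and of Ctrl, GADD45A had 110.1 and 102 TPM, and IL11 had 14.7 and 13.1 TPM, each above the other libraries of its group. SCD had 38.2 and 37.7 TPM in replicate 1 of D. rotundifolia 3× and of Ctrl, below the other libraries of its group.

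With D. rotundifolia 3× alone, replicate 1 was far above the others for CXCL8 (64.9 TPM) and IL1B (6.43 TPM). In Ctrl alone it was far above for CTGF (28.9 TPM), CXCL1 (44.8 TPM), HBEGF (26.2 TPM), JUN (21.1 TPM), PLAU (380.5 TPM), PLAUR (272 TPM), SERPINB2 (88.3 TPM) and SPRY4 (6.63 TPM). In Ctrl it was far below for AHRR (1.66 TPM, against 2.19 to 2.21 TPM) and for CYP1B1 (61.5 TPM, against 94.5 to 95.9 TPM), the 1 gene called.

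The remaining cases were other libraries with D. rotundifolia 3×. EPGN was low in replicate 2 (199 TPM, against 269 to 281 TPM) and EGR1 in replicate 3 (24.8 TPM, against 33.8 to 34.2 TPM). TMEM253 was high in replicate 3 (1.90 TPM, against 0.264 to 0.384 TPM), CKS1BP2 was listed at 152 TPM in replicate 3 and at 0 in the others, and PPP1R10, summed over its IDs, was high in replicate 2 (43.9 TPM, against 31.0 to 31.2 TPM).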

How the results depend on the processing

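The call of CYP1B1 was kept with either other pseudocount, at a minimum of 5 TPM, with centred libraries and without mitochondrial genes (adjusted p from 0.0247 to 0.0410 from limma). The number of genes called was 0 without the replicate block, without a filter, without a trend and without any 1 replicate (0 to 0), and 2 when IDs were not summed. The fit without the block, which drops the pairing, gave 311 genes with an unadjusted p under 0.05, against 888 with it. Where no gene was called, the count under an unadjusted p of 0.05 in limma ran from 311 to 1177 genes. The lowest was 311 of 12919 genes without the block, and the highest was 1177 of 18632 genes without a filter. By chance alone a share of about 0.05 is expected, and the share without the block was below it.

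Centred libraries gave 821 genes higher and 1256 lower in all pairs and 113 genes with all treated libraries below Ctrl, and moved the median of NRF2 target genes to 0.00049 and of ribosomal proteins to −0.040. Without a filter, 205 genes had all treated libraries above and 112 below, and the median of EGFR and ERK feedback genes was 0.038. Leaving out 1 replicate gave 1893 to 2419 genes higher and 1353 to 1555 lower in all remaining pairs, 394 to 732 genes with treated libraries all above and 235 to 361 all below, and medians of 0.051 to 0.14 for EGFR and ERK feedback genes and 0.012 to 0.053 for NRF2 target genes. With fewer pairs, a condition on every pair or library is met more often, and the cause of the other shifts was not tested.

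Of the same 108 genes, 98 kept their sign under every alternative in which they were compared. The others were near 0 or, for NFKBIA, uneven over the pairs. The count of 98 was largely fixed in advance and does not measure robustness. Dropping the block or the trend leaves a log2 change as it was. Many of these genes had the same sign in every pair, which neither another pseudocount nor leaving out 1 replicate can reverse. With IDs not summed 101 genes kept their sign, at a minimum of 5 TPM 96 did, and the rest were not compared there. With centred libraries HLA-F was at −0.0013, NQO1 at −0.012 and TAP2 at −0.021, and without mitochondrial genes EPAS1 was at 0.00060. Leaving out 1 replicate in turn gave AHR from −0.04 to 0.19, EPAS1 from −0.073 to 0.042, HLA-F from −0.019 to 0.069, LENG1 from −0.064 to 0.028, NFKBIA from −0.31 to 0.012, NQO1 from −0.0055 to 0.031, PPP1R10 from −0.205 to 0.062, TAP2 from −0.023 to 0.015, TXNIP from −0.0505 to 0.024 and UGT1A6 from −0.048 to 0.0037. Since these values give no depth for each library, counting error at low TPM was not separated from the spread between cultures, and genes near 1 TPM, such as ANKRD37, AHRR and LGR5, have folds that the added 1 TPM shrinks.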
